A study of Mus musculus with 6 samples.

Results

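The genes described here encode the actin cytoskeleton of the macrophage and the regulators that shape it into a phagocytic cup. A list of 55 genes was drawn up, covering actin and its monomer-binding proteins, the Arp2/3 complex and its activators, formins, severing and capping proteins, crosslinkers, myosins, and the kinases and GTPases that control them. Of these, 47 had an array feature paired with exactly 1 gene symbol and are the members measured, out of 22180 genes in all. Where a gene had several such features, the brightest was used. Actr2, Arpc3, Cyfip1, Lyn and Rock2 were not analysed here, and Arpc1b was represented by 2 features that it shares with other genes. The formins listed as Diap1 and Diap2 were found under their current symbols, Diaph1 and Diaph2, and are given apart from the counts.

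The cells were J774A.1, a macrophage-like line from Balb/c mice, grown in RPMI-1640 with 10% FCS. The NPFF group received neuropeptide FF at 1 nM in PBS for 18 h, and the control group received PBS vehicle for 18 h; the titles of the control arrays call these cells non-treated. Each group had 3 arrays, numbered in the titles as biological replicates. Nothing states whether these came from separate days, so the p-values measure only the spread between these samples. NPFF is an amidated neuropeptide that signals through G-protein-coupled receptors, and the comparison addressed which macrophage transcripts differ after exposure to it.

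A macrophage engulfs a particle by pushing a sheet of membrane around it. Receptors signal through Src-family kinases and Vav exchange factors to GTPases such as Rac and Cdc42, which switch on WASP and WAVE proteins and formins. These start new actin filaments, branched ones through the Arp2/3 complex. Cofilin, gelsolin and coronins take old filaments apart, capping proteins stop growth, and myosins pull the cup closed. Many genes of this machinery are controlled by actin itself, since monomeric actin holds back the cofactor MRTF of the transcription factor SRF.

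None of the measured actin and phagocytic cup genes passed the test between NPFF and control, and their differences were small. By limma, 0 of 47 members had an adjusted p under 0.05, beside 0% of all genes, and 0 had an unadjusted p under 0.05, beside 2.51% of all genes (556 of 22180). The smallest unadjusted p of a member was 0.0656, for Abi1, and every member had an adjusted p of 1. Of the 47 members, 33 were higher and 14 lower in NPFF, or 70.2% higher beside 51.7% of all genes, with Rhog counted as higher at 0.00. Their differences, NPFF minus control on the log2 scale, ran from -0.18 to 0.36 with a median of 0.09, beside a median of 0.00 over all genes. In 24 of 47 members the difference was no larger than its own standard error (SE). This held for 15380 of 22180 genes in all, a larger share than among the members. The groups did not overlap in 4 members, or 8.51%, beside 8.58% of all genes; Vasp and Capg were higher (3.67% of all genes lay so), and Arpc2 and Abi1 lower (4.92% of all genes).

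The tilt toward higher values in NPFF came with a single array, control 1. Averaged over the 47 members, the log2 level was 9.90 in control 1, 10.25 in control 2 and 10.28 in control 3, against 10.23, 10.27 and 10.22 in NPFF 1, 2 and 3. The NPFF arrays thus lay within 0.06 log2 of controls 2 and 3, and control 1 lay below all of them. Control 1 was the lowest of the 6 arrays in 34 members (72.3%, beside 48.9% of all genes) and the highest in 8 (17%, beside 24.1%). Without control 1, 18 members were higher and 29 lower, and the median was -0.01, beside -0.02 for all genes, of which 39.1% were higher.

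**Figure D1:**
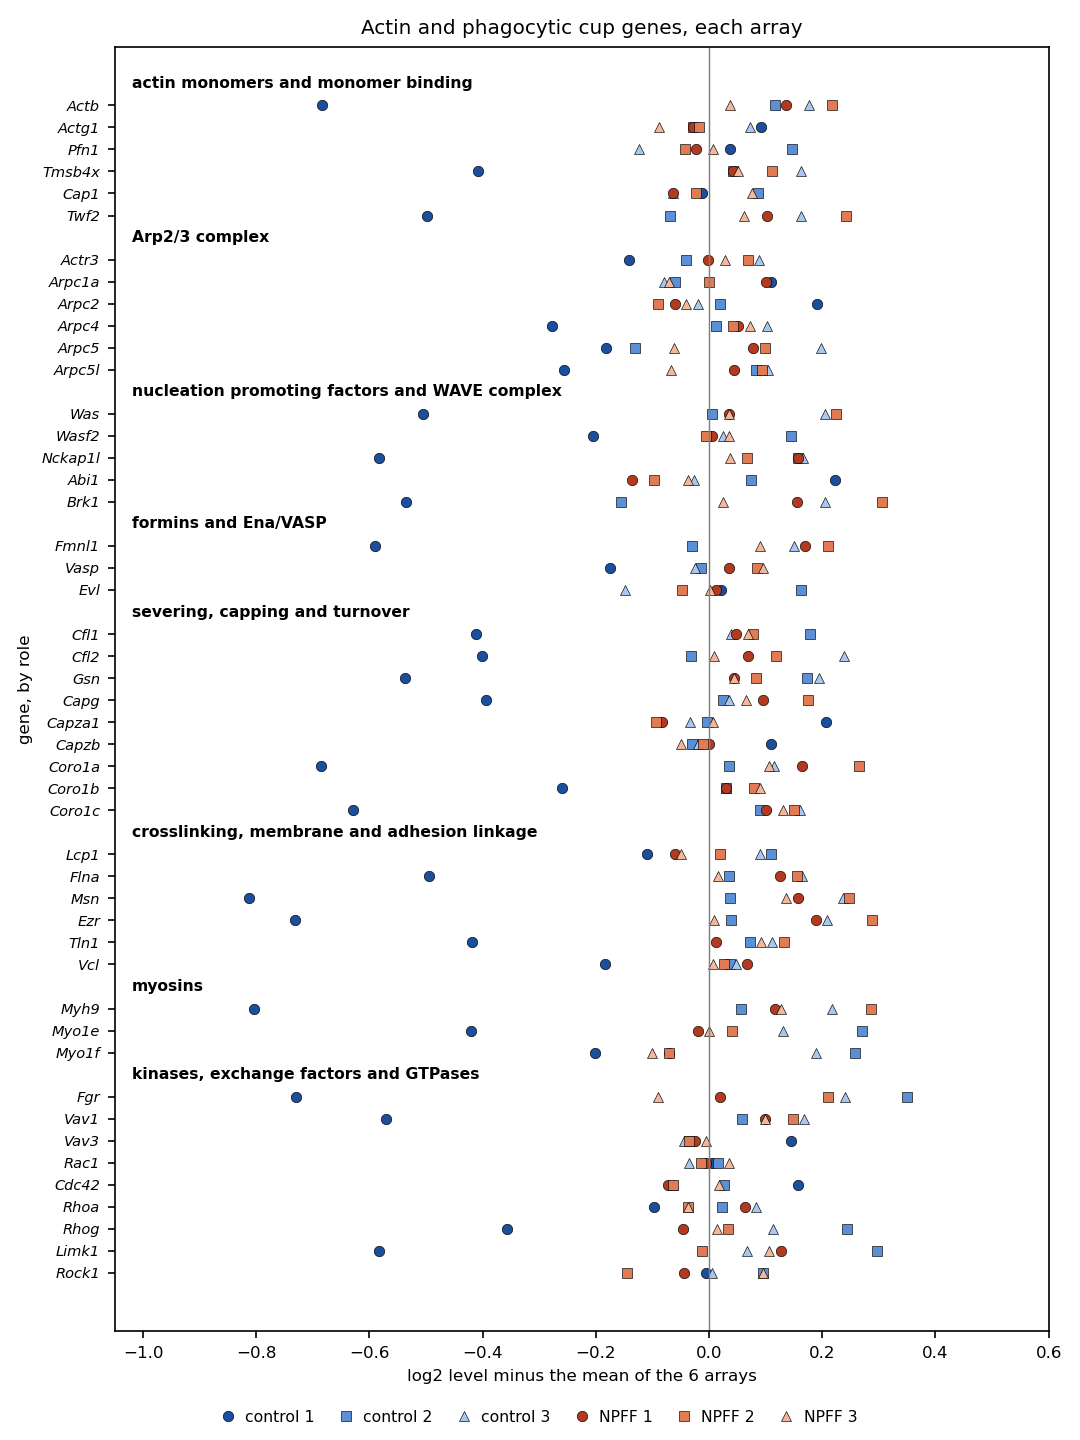
Each row is a gene, grouped by role, and each point is an array; the x axis gives the log2 level minus the mean of the 6 arrays for that gene. Control 1 (dark blue circles) lies far to the left in most rows, down to Msn, Myh9 and Ezr, but to the right for Arpc2, Abi1 and Capza1, whereas controls 2 and 3 (blue) and the NPFF arrays (red) share a narrow band.

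Set against each control in turn, the NPFF arrays gave 3 different pictures. These comparisons share the NPFF arrays and have no test, since each has 1 control. Above control 1 the mean of the NPFF arrays lay higher in 35 of 47 members (74.5%, beside 62.6% of all genes), with a median of 0.33 and a range of -0.32 to 0.99. Over control 2 it was higher in 24 members (51.1%, beside 35.8% of all genes), with a median of 0.01 and a range of -0.33 to 0.32. Over control 3 it was higher in 14 members (29.8%, beside 48.0% of all genes), with a median of -0.04 and a range of -0.27 to 0.14. In 27 of 47 members the NPFF mean was above control 1 and below control 3, beside 7567 of 22180 genes in all. Differences over 0.5 log2 were seen in 17 members against control 1 (36.2%, beside 13.9% of all genes), and all 17 were higher in NPFF, beside 9.0% of all genes. Against control 2 and control 3 there were 0 such members, beside 1.51% and 0.189% of all genes.

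**Figure D2:**
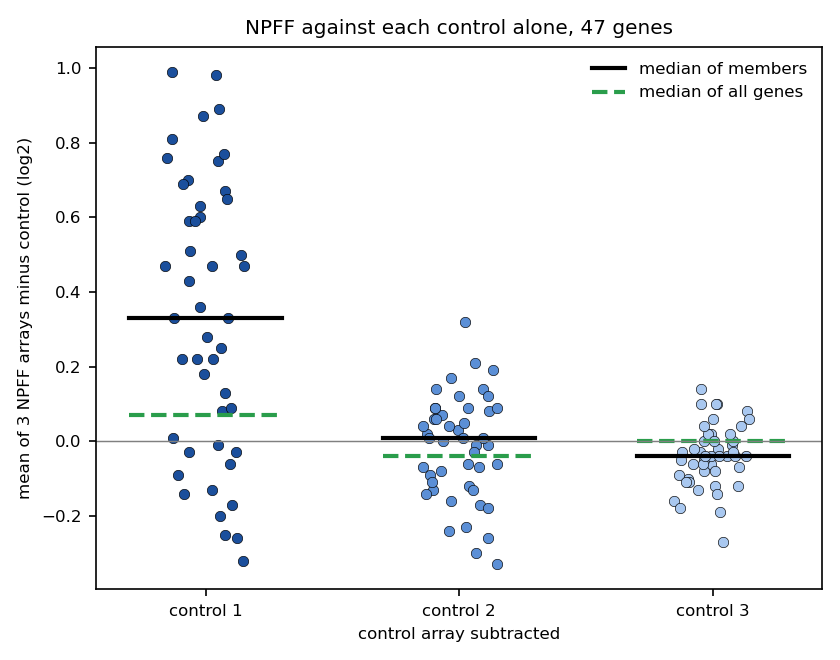
The y axis gives the mean of the 3 NPFF arrays minus the control array named on the x axis, in log2 units, with a point for each of the 47 genes; black bars are the medians of these genes and green dashed bars those of all genes. The median falls from 0.33 against control 1 to 0.01 against control 2 and -0.04 against control 3, and the points spread widely only against control 1.

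Control 1 stood apart over the whole array as well. When control 3 and the NPFF arrays were averaged as a reference, control 1 departed from it with an SD of 0.36 over all genes. Control 2 departed with 0.17, and the 4 reference arrays with 0.10 to 0.12, each from the mean of the other 3. Most arrays of this reference are NPFF arrays, so any difference between the groups adds to the departures of the controls. The deposited log2 values of control 1 had a median of 6.38 and an interquartile range of 2.04, where the other 5 arrays had medians of 6.24 to 6.29 and ranges of 2.31 to 2.41. Of the members, 34 of 47 lay in the top 10% of genes by signal, and over that whole class of 2218 genes the median of NPFF minus control 1 was 0.12, against 0.33 for the members. With all arrays, 60.3% of the class were higher in NPFF, beside 70.2% of members. The groups did not overlap in 15.8% of the class, beside 8.51% of members. Differences over 0.5 log2 from control 1 were seen in 18.6% of the class, beside 36.2% of members. Mitochondrially encoded genes (10 of 13 measured) had a mean of 13.22 in control 1, 12.88 in control 2 and 13.03 in control 3, and at most 13.03 in NPFF. Only 1 of the 10 was higher in NPFF than in control 1. The median of NPFF minus control 1 was -0.15, and 1 gene, at -0.96, was the only one over 0.5 log2 away, so it weighed on that mean. Macrophage markers were present throughout, with 13 of 15 in the top 10% by signal, Adgre1, Cd68, Csf1r and Lyz2 among them, and a mean of 10.87 in control 1, 11.10 and 11.14 in the other controls and 11.02 to 11.12 in NPFF. Of 17 fibroblast and muscle markers and 10 of 12 lymphocyte markers measured, 0 lay in that class; their means were 6.17 to 6.29 and 5.68 to 5.78 in control and 6.24 to 6.29 and 5.66 to 5.69 in NPFF. In bulk RNA, fewer cells of a type and less RNA per cell cannot be told apart. The part of any of these measures in the members' differences was not tested.

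Promoter sequence was read because SRF, which controls many actin genes, binds a short element, the CArG box. This box was taken as CC, then only A or T, then GG, 10 letters in all. A match on either strand is also a match on the other, though its letters may differ there. It was searched in RefSeq windows from 250 bases before to 50 after each gene's start (GRCm38.p6), which were found for 40 of the 47 members. Actb, Twf2, Arpc5l, Nckap1l, Coro1b, Rac1 and Rock1 had no window and were not searched, so nothing is said of the box in these genes. The box was present in 4 of their 50 windows (8%), in 12 of 34 windows of the MRTF and SRF axis genes (35.3%) and in 535 of 32851 windows in all (1.63%). The members that carry it were Actg1 (chr11:120348551-120348610, minus strand), Vcl (chr14:20929148-20929205, plus strand), Myo1e (chr9:70207293-70207349, plus strand) and Arpc4 (chr6:113377863-113377897, plus strand). The stretch around each box is given 5′ to 3′ on the gene's strand, with the box in capitals, because these members have the element in common.
Actg1: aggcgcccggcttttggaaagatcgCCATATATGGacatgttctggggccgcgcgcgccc
Vcl: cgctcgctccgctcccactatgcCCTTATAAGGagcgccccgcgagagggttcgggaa
Myo1e: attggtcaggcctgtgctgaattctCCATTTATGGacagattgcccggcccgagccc
Arpc4: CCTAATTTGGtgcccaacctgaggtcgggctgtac
The box began 90 bases before the start in Actg1, 227 in Vcl, 32 in Myo1e and 250 in Arpc4. Relative to the average of control 3 with the NPFF arrays, control 1 stood at 0.11 log2 for Actg1, -0.22 for Vcl, -0.46 for Myo1e and -0.35 for Arpc4, so the low level of that array was not shared by all 4. Their differences between NPFF and control were -0.09, 0.06, 0.01 and 0.11 in the same order. A match of letters is a description and says nothing of binding.

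Actin and the proteins that bind its monomers are the raw material of the cup. The log2 level of Actb, the cytoplasmic beta actin, was 9.57, 10.37 and 10.43 in controls 1 to 3 and 10.39, 10.47 and 10.29 in the NPFF arrays. Control 1 alone was low, and the other 5 arrays lay within 0.18 of each other. The difference was 0.26 (SE 0.23, n = 3 per group; 95% interval -0.28 to 0.81) and became -0.01 (SE 0.07) without control 1. Actg1, the gamma actin of the cytoplasm, stood at 10.27, 10.15 and 10.25 in control and 10.15, 10.16 and 10.09 in NPFF. Here control 1 was the highest array, and the difference was -0.09 (SE 0.06). Because actin genes have near-identical copies, the 6 features named Actg1 are of uncertain origin; their differences ran from -0.29 to -0.02.

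Profilin (Pfn1) feeds actin monomers to growing filaments. Its log2 levels were 12.82, 12.93 and 12.66 in control and 12.76, 12.74 and 12.79 in NPFF, so all NPFF arrays lay inside the control range (difference -0.04, SE 0.08). Thymosin beta 4 (Tmsb4x), which keeps monomers in reserve, stood at 9.09, 9.54 and 9.66 in control and 9.54, 9.61 and 9.55 in NPFF. Control 1 was again the low array, with a difference of 0.13 (SE 0.15), or -0.04 without it. Cap1, which recycles actin from cofilin, had a difference of -0.01 (SE 0.07), and the monomer-binding twinfilin Twf2 one of 0.27 (SE 0.17), or 0.09 without control 1.

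The Arp2/3 complex, which starts a new filament as a branch on an old one, was measured through 6 of 9 listed subunits. Their differences were small, from -0.13 to 0.11, with 5 higher and 1 lower in NPFF. Arpc2, a core subunit that contacts the mother filament, was the lower one. Its log2 levels were 12.56, 12.39 and 12.35 in control and 12.31, 12.28 and 12.33 in NPFF. Every NPFF array lay below every control, by 0.02 at the nearest, and the difference was -0.13 (SE 0.08; 95% interval -0.31 to 0.06), or -0.06 without control 1. The actin-related protein Actr3 had a difference of 0.06 (SE 0.08), Arpc1a 0.03 (SE 0.08), Arpc4 0.11 (SE 0.11), Arpc5 0.07 (SE 0.12) and its relative Arpc5l 0.05 (SE 0.11). A 2nd Arpc5 feature had a difference of -0.09. The brighter of the features shared by Arpc1b and Gm5637 differed by 0.13, with control 1 at 12.37 and the other arrays at 12.63 to 12.73. The dimmer one, shared with Pdap1 as well, differed by -0.04.

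Among the proteins that switch the Arp2/3 complex on, Abi1, an adaptor subunit of the WAVE complex, had the smallest p of all members. It stood at 9.90, 9.75 and 9.65 in control and 9.54, 9.58 and 9.64 in NPFF. No NPFF array reached the lowest control, control 3, although NPFF 3 lay only 0.01 below it. The difference was -0.18 (SE 0.08; 95% interval -0.38 to 0.02), or 0.882-fold, with an adjusted p of 1 by limma; without control 1 it was -0.12 (SE 0.06). The other WAVE subunits were higher, and none of them passed the test. Brk1, the smallest of them, had a difference of 0.33 (SE 0.19), Nckap1l, the haematopoietic scaffold, 0.17 (SE 0.20), and Wasf2, the WAVE protein itself, 0.03 (SE 0.10). Was, the WASP protein activated by Cdc42, had a difference of 0.20 (SE 0.18). Without control 1 these 4 differences were 0.14, -0.07, -0.07 and -0.01.

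Formins and Ena/VASP proteins lengthen unbranched filaments. Vasp, which shields growing ends from capping, had log2 levels of 9.40, 9.56 and 9.55 in control and 9.61, 9.66 and 9.67 in NPFF. All NPFF arrays lay above all controls, the nearest by 0.05. The difference was 0.15 (SE 0.07; 95% interval -0.02 to 0.32; unadjusted p = 0.0731 and adjusted p = 1 by limma), and it was 0.10 (SE 0.06) without control 1. The formin Fmnl1 had a difference of 0.31 (SE 0.19), or 0.09 without control 1, and Evl, a relative of Vasp, -0.03 (SE 0.09). The formins Diaph1 and Diaph2 had differences of -0.08 (SE 0.07) and -0.23 (SE 0.14). Diaph2 stood at 9.61, 9.12 and 9.14 in control and 9.02, 9.05 and 9.11 in NPFF, with control 1 as the high array.

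Proteins that cut, cap and recycle filaments gave 7 members higher and 2 lower. Coro1a, the haematopoietic coronin that coats the phagocytic cup, had log2 levels of 9.28, 10.00 and 10.08 in control and 10.13, 10.23 and 10.07 in NPFF. NPFF 3 fell just below control 3, so the groups overlapped. Its difference of 0.36 (SE 0.21; 95% interval -0.15 to 0.87) was among the largest of the members, and became 0.10 (SE 0.07) without control 1. Its relatives Coro1b and Coro1c had differences of 0.13 (SE 0.10) and 0.26 (SE 0.21), or 0.04 and 0.01 without control 1.

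Capg, a macrophage capping protein of the gelsolin family, stood at 10.32, 10.74 and 10.75 in control and 10.81, 10.89 and 10.78 in NPFF. The NPFF arrays lay above the controls without overlap, with a difference of 0.22 (SE 0.13; 95% interval -0.08 to 0.53; adjusted p = 1 by limma), or 0.08 without control 1. Cofilin (Cfl1), which severs aged filaments, stood at 10.01, 10.60 and 10.46 in control and 10.47, 10.50 and 10.49 in NPFF. All NPFF arrays lay between controls 3 and 2, and the difference was 0.13 (SE 0.15). The other cofilin, Cfl2, also had a difference of 0.13 (SE 0.16), and gelsolin (Gsn), which severs and caps, 0.11 (SE 0.20). The capping protein subunits Capza1 and Capzb had differences of -0.11 (SE 0.08) and -0.04 (SE 0.07), and both were highest in control 1.

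Crosslinkers and the proteins that tie actin to the membrane or to integrins gave 5 members higher and 1 lower. Msn (moesin), a linker of actin to the plasma membrane, stood at 10.53, 11.38 and 11.58 in control and 11.50, 11.59 and 11.48 in NPFF. Control 1 stood at -1.01 log2 from the average of control 3 with the NPFF arrays, the widest gap of any member. The difference was 0.36 (SE 0.26; 95% interval -0.27 to 0.98), or 1.28-fold, and 0.04 (SE 0.08) without control 1. Its relative ezrin (Ezr) had a difference of 0.32 (SE 0.24), the crosslinker filamin A (Flna) 0.19 (SE 0.17), talin (Tln1), which activates integrins, 0.16 (SE 0.15), and its partner vinculin (Vcl) 0.06 (SE 0.08). Without control 1 these 4 were 0.04, -0.01, -0.01 and -0.01. Lcp1 (L-plastin), which bundles filaments in leukocytes, had a difference of -0.06 (SE 0.08), or -0.13 (SE 0.06) without control 1.

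The GTPases, which pass the signal on to WASP, WAVE and formins, had small differences. Rac1, which drives the sheet-like protrusions of the cup, stood at 11.14, 11.15 and 11.10 in control and 11.13, 11.12 and 11.17 in NPFF, and all 6 arrays lay within 0.07 of each other. Its difference was 0.01 (SE 0.06; 95% interval -0.13 to 0.15). Cdc42, which acts on WASP, stood at 12.41, 12.28 and 12.19 in control and 12.18, 12.19 and 12.27 in NPFF, with control 1 the highest (difference -0.08, SE 0.08). Rhoa, which acts on formins and on Rock kinases, stood at 12.66, 12.78 and 12.84 in control and 12.82, 12.72 and 12.72 in NPFF (difference -0.01, SE 0.07). The exchange factors Vav1 and Vav3, which switch these GTPases on, had differences of 0.23 (SE 0.19) and -0.04 (SE 0.07). The cofilin kinase Limk1 had a difference of 0.14 (SE 0.22) and the myosin-activating kinase Rock1 -0.07 (SE 0.08).

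With control 1 left out, members had an unadjusted p under 0.05 about as often as genes in general. In that fit of 2 controls against 3 NPFF arrays there were 5 such members, all lower in NPFF, or 10.6%, beside 10.8% of all genes (2397 of 22180) in either direction and 7.21% lower. After adjustment 0 members passed, beside 0% of all genes. The 5 genes were chosen after their values were seen, and their values are given as a description. Among the myosins, Myo1f, a leukocyte class I myosin that links membrane to actin, stood at 8.11, 8.57 and 8.50 in control and 8.24, 8.24 and 8.21 in NPFF. The NPFF arrays lay within 0.03 of each other, below controls 2 and 3 and above control 1. Its difference was -0.16 (SE 0.13) with all arrays and -0.30 (SE 0.06; unadjusted p = 8.64e-04, adjusted p = 0.332 by limma) without control 1. Against control 3 alone it was -0.27, the lowest value of any member there.

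Myo1e, the class I myosin related to Myo1f that is also found in the cup, stood at 8.86, 9.55 and 9.41 in control and 9.26, 9.32 and 9.28 in NPFF. It had a difference of 0.01 (SE 0.18), or -0.19 (SE 0.06) without control 1. Fgr, a Src-family kinase of phagocytes, stood at 7.52, 8.60 and 8.49 in control and 8.27, 8.46 and 8.16 in NPFF, with differences of 0.09 (SE 0.28) and -0.25 (SE 0.09). In both genes control 1 lay below all NPFF arrays and controls 2 and 3 above them. Rhog, a GTPase upstream of Rac, stood at 9.70, 10.30 and 10.17 in control and 10.01, 10.09 and 10.07 in NPFF, with differences of 0.00 (SE 0.15) and -0.18 (SE 0.06). Gsn had differences of 0.11 (SE 0.20) and -0.13 (SE 0.06). The non-muscle myosin heavy chain Myh9, which contracts the actin network, did not share this pattern: at 9.35, 10.21 and 10.37 in control and 10.27, 10.44 and 10.28 in NPFF it had differences of 0.35 (SE 0.26) and 0.04 (SE 0.08). Without control 1, 8 members (17%) lay wholly below controls 2 and 3, beside 18.3% of all genes, and 3 lay wholly above, beside 8.97% of all genes.

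**Figure D3:**
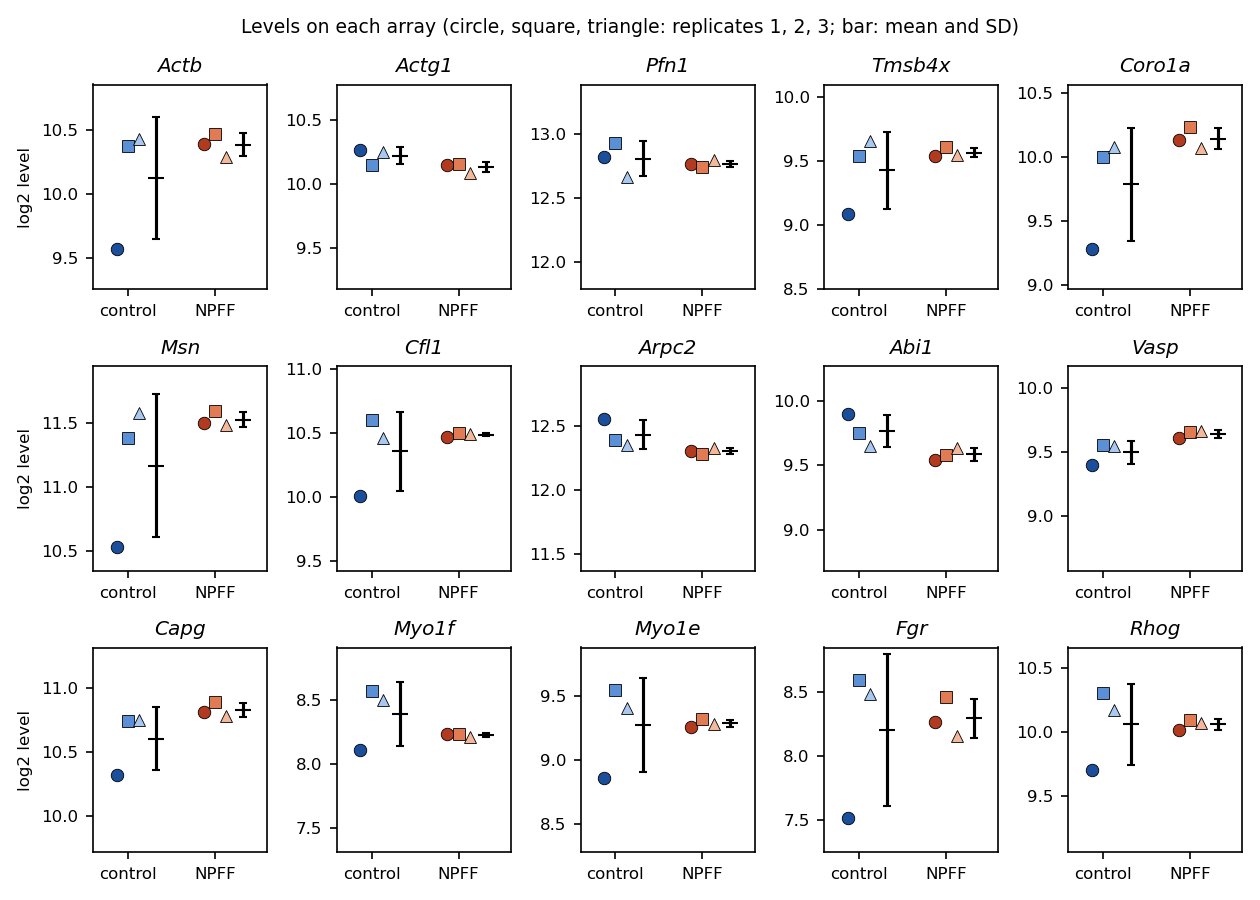
Each panel gives the log2 level of a gene on each array (circle, square and triangle for replicates 1, 2 and 3) with the mean and SD of each group of 3; all panels span the same height in log2 units. The wide bars of the control group for Actb, Coro1a, Msn and Fgr come with a low control 1, and for Myo1f the NPFF arrays lie at 8.21 to 8.24, between control 1 and controls 2 and 3.

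**Figure D4:**
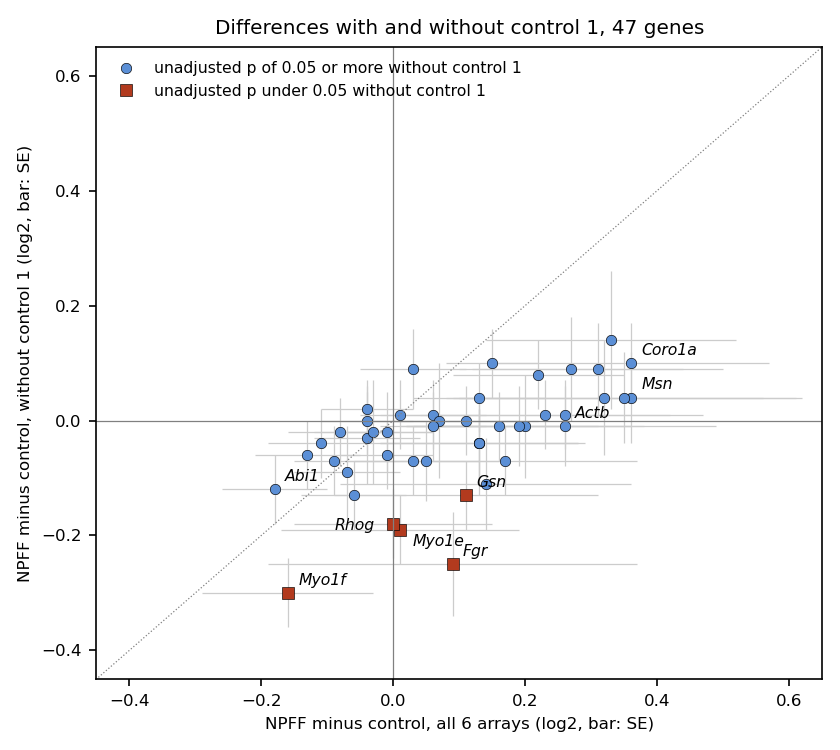
Each point is a gene; the x axis gives NPFF minus control over all 6 arrays and the y axis the same without control 1, both in log2 units with SE bars, and the dotted line marks equal values. Differences of up to 0.36 on the x axis fall to between -0.13 and 0.14 on the y axis for genes above 0.10 on the x axis, and Myo1f, Fgr, Myo1e, Rhog and Gsn (red squares) lie among the lowest.

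Features of the same gene did not always share a direction. Dimmer features had differences of -0.06 for Msn and -0.13 for Coro1c, where the brightest ones were above 0, and 0.04 and -0.10 for Rhoa. For Capza1 and Cdc42 the dimmer features, with differences of -0.19 and -0.03, had the sign of the brightest. The dimmer features of Msn (log2 levels of 4.87 to 5.18) and Cdc42 (5.01 to 5.38) lay close to the lowest deposited value, 4.59. Those of Coro1c (6.37 to 6.67) and Capza1 (5.79 to 6.22) were also far dimmer than the brightest ones. Their signs therefore say little of these genes.

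The spread between arrays was itself uneven between the groups. The median SD of a member was 0.24 over the 3 controls and 0.05 over the 3 NPFF arrays, against 0.14 and 0.07 for all genes. In 46 of 47 members (97.9%) the control SD was the larger, beside 80.4% of all genes; the exception was Rock1, at 0.05 in control and 0.12 in NPFF. By role, control 1 was farthest below the mean of all arrays for the 3 myosins (-0.48) and the 6 crosslinking and linkage genes (-0.46), and nearest to it for the 6 Arp2/3 subunits (-0.09). The remaining roles lay between -0.33 and -0.23. Control 1 was above the NPFF mean in 12 members, namely Actg1, Pfn1, Arpc1a, Arpc2, Abi1, Evl, Capza1, Capzb, Vav3, Rac1, Cdc42 and Rock1. The departure of control 1 had a Spearman correlation of 0.18 with the genomic span of the 47 genes, a description over genes of the same arrays.

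Outside the members, 152 of 163 further actin and phagocytic cup genes were measured. They were higher in NPFF in 85 (55.9%, beside 51.7% of all genes) and lower in 67, with a median of 0.01. By limma 0 passed after adjustment. An unadjusted p under 0.05 was found in 6 of the 152 (2 higher, 4 lower), beside 556 of 22180 genes in all (2.51%, with 185 higher and 371 lower). In 17 the groups did not overlap (11.2%, beside 8.58% of all genes), 6 higher and 11 lower. Aif1, the actin-bundling macrophage protein also called Iba1, had the smallest p, with 7.40, 7.33 and 7.53 in control and 7.04, 7.16 and 6.97 in NPFF. All NPFF arrays lay below all controls, by 0.17 at the nearest. Its difference was -0.36 (SE 0.08; unadjusted p = 0.00398, adjusted p = 1 by limma), or 0.777-fold, and it stayed between -0.42 and -0.31 with any 1 array left out.

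Also lower without overlap were Arhgap12 at -0.17 (SE 0.06) and Daam1, a formin, at -0.17 (SE 0.07), with the class IX myosin Myo9a at -0.17 (SE 0.07) and the bundling protein Pls3 at -0.16 (SE 0.07). On the higher side, Cdc42ep4, a Cdc42 effector, had a difference of 0.29 (SE 0.11) and the bundling protein Pls1 0.20 (SE 0.07). Arhgap30 followed at 0.19 (SE 0.08), the cortactin relative Hcls1 at 0.46 (SE 0.25), or 0.15 without control 1, and the adaptor Crkl at 0.16 (SE 0.10), or 0.06 without control 1. Without control 1, 24 of the 152 had an unadjusted p under 0.05 (15.8%, beside 10.8% of all genes). Of these 20 were lower, beside 1600 of the 2397 over all genes. After adjustment 0 of the 152 passed, and their median was -0.06, beside -0.02 for all genes. As in the members, control 1 was the lowest array on average, at -0.19 from the mean of the 6 arrays, with the other controls at 8.28 and 8.25 and NPFF at 8.18 to 8.24.

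The MRTF and SRF axis, with Srf, its cofactors and common targets, was measured in 29 of 29 genes. It had 20 higher (69%, beside 51.7% of all genes) and 9 lower, and a median of 0.02. By limma 0 of its genes had an unadjusted p under 0.05, beside 2.51% of all genes, and 0 an adjusted p under 0.05, beside 0%. Against control 1, 26 of 29 were higher in NPFF, beside 62.6% of all genes. Against control 2 there was 1, beside 35.8%, and against control 3 there were 14, beside 48.0%. In 1 gene the groups did not overlap (3.45%, beside 8.58% of all genes). This was the calponin Cnn3, at 7.33, 7.40 and 7.30 in control and 7.11, 7.18 and 7.26 in NPFF (difference -0.16, SE 0.07).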

How the data were processed

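Transcript levels were measured on 6 Affymetrix whole-transcript arrays, 3 per group, from 500 ng of RNA each, per the labels' protocols. The deposited values run from 4.59 to 14.0 and were taken as log2 intensity per feature. How the authors corrected background and normalized, and the genome build, is not given in the sources used here. Of 33794 features, 23521 carried exactly 1 symbol, 1814 several and 8459 none in the platform annotation. Sorted values of the arrays departed from their mean by up to 0.172 log2, so quantile normalization over all features was applied. A gene was represented by its brightest feature on average, and no dim features were removed. Differences between NPFF and control were fitted in R 4.3.3 with limma 3.58.1 (lmFit and eBayes on group, 4 residual and 2.49 prior degrees of freedom), two-sided, with Benjamini-Hochberg adjustment over 22180 genes and a threshold of 0.05. SE and 95% intervals are of that fit. SD is over the 3 arrays of a group. Arrays have no counting depth, and their number limits the precision.

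The members and lists were chosen with earlier results of these data known, so lists are described by counts and medians with no test of their own. Every member was to be named, with values on each array for members whose groups did not overlap or whose unadjusted p was under 0.05, for 10 chosen genes, and for the largest and smallest differences; of other actin lists, up to 5 genes in each direction by p among those without overlap. On simulated data of 22180 genes for NPFF minus control, each array was given its own noise SD, the same for every gene. There 14.9%, 97% and 100% of genes changed by 0.5, 1 and 2 log2 were recovered. The simulation left out that real genes differ in their noise, so these shares do not say how many real changes would be found here. Alternatives were the values as deposited, median centring, cyclic loess, the mean over a gene's features, removal of the dimmest 25%, trended robust moderation, array weights, the replicate number as a block, and arrays left out.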

Additional observations from a re-analysis of the deposited data

How the results depend on the processing

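The arrays bound these results: 3 per group with an uneven spread. After adjustment 0 members, 0 genes of the other lists and 0 genes in all passed in each of the 16 fits run, and the smallest adjusted p of any gene was 0.0547, with array weights. The count of all genes at an unadjusted p under 0.05 was 556 and became 1866 with array weights and 1130 without controls 1 and 2, where the lone control 3 is assumed to vary like the NPFF arrays; with any 1 array left out it ran from 235 to 2397, the highest without control 1. Members at that level numbered 0 and became 1 as deposited and 1 after median centring (Abi1 in both), 1 with array weights and 1 without controls 1 and 2 (Myo1f in both), and 0 to 5 with any 1 array left out: 5 without control 1 and 4 without control 3, where Twf2, Brk1 and Fmnl1 were higher and Abi1 lower. Of genes at that level, 33.3% were higher, against 19% as deposited and 12.1% after median centring. Members higher in NPFF numbered 33 and became 20 with array weights and 14 without controls 1 and 2; with any 1 array left out they ran from 18, without control 1, to 37, and with cyclic loess they were 27. The median over members ran from -0.04, without controls 1 and 2, to 0.18, without control 3. Against control 1 it was 0.20 after cyclic loess and 0.51 after median centring.

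Whether the replicate number pairs the arrays could not be decided from the values. Deviations from the group means correlated at 0.23, 0.45 and -0.33 for same-numbered arrays, and at -0.50 to 0.41 for arrays of different number. Deviations within a group are bound to each other, and control 1 stood apart, so these correlations cannot settle it. With the replicate number as a block, 0 genes and 0 members passed after adjustment and 33 members were higher, as without the block.

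The sign of the difference held in every fit for 12 members (Actg1, Arpc2, Abi1, Fmnl1, Vasp, Capg, Capza1, Coro1a, Coro1b, Lcp1, Myo1f and Rock1) and turned in at least 1 for 35. The 29 that turned without controls 1 and 2 had differences of -0.04 for Actb, 0.10 for Pfn1, -0.10 for Tmsb4x, 0.06 for Cap1, -0.03 for Twf2, -0.06 for Actr3, -0.05 for Arpc4, -0.16 for Arpc5, -0.08 for Arpc5l, -0.11 for Was, -0.01 for Wasf2, -0.08 for Nckap1l, -0.04 for Brk1, 0.14 for Evl, -0.18 for Cfl2, -0.14 for Gsn, -0.03 for Coro1c, -0.07 for Flna, -0.06 for Msn, -0.04 for Ezr, -0.03 for Tln1, -0.02 for Vcl, -0.04 for Myh9, -0.13 for Myo1e, -0.19 for Fgr, -0.05 for Vav1, 0.02 for Vav3, 0.02 for Cdc42 and -0.11 for Rhog. The 21 that turned with array weights, where control 1 weighed 0.121 and control 3 2.37, had 0.03 for Pfn1, -0.05 for Tmsb4x, 0.01 for Cap1, -0.02 for Actr3, -0.01 for Arpc4, -0.06 for Arpc5, -0.06 for Arpc5l, -0.04 for Was, -0.03 for Wasf2, -0.04 for Nckap1l, 0.06 for Evl, -0.09 for Cfl2, -0.11 for Gsn, -0.01 for Flna, -0.01 for Tln1, 0.00 for Vcl, -0.14 for Myo1e, -0.18 for Fgr, 0.01 for Vav3, -0.13 for Rhog and -0.02 for Limk1. After cyclic loess 6 turned, with -0.01 for Arpc1a, 0.00 for Arpc5l, -0.03 for Wasf2, -0.01 for Myo1e, -0.02 for Rac1 and -0.04 for Rhog. Over the mean of its features Arpc5 was at -0.01, and Rhog was at -0.01 as deposited and 0.00 after median centring. With 1 array left out, 25 turned, with ranges of -0.01 to 0.41 for Actb, -0.11 to 0.02 for Pfn1, -0.04 to 0.25 for Tmsb4x, -0.05 to 0.03 for Cap1, -0.02 to 0.09 for Arpc1a, 0.00 to 0.19 for Arpc4, -0.07 to 0.11 for Arpc5l, -0.01 to 0.35 for Was, -0.07 to 0.10 for Wasf2, -0.07 to 0.30 for Nckap1l, -0.11 to 0.05 for Evl, -0.04 to 0.25 for Cfl1, -0.04 to 0.28 for Cfl2, -0.13 to 0.23 for Gsn, -0.07 to 0.00 for Capzb, -0.01 to 0.33 for Flna, -0.01 to 0.25 for Tln1, -0.01 to 0.11 for Vcl, -0.19 to 0.15 for Myo1e, -0.25 to 0.29 for Fgr, -0.08 to 0.02 for Vav3, -0.01 to 0.02 for Rac1, -0.06 to 0.03 for Rhoa, -0.18 to 0.12 for Rhog and -0.11 to 0.33 for Limk1.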
